A study of Xenopus tropicalis with 24 samples.

Results

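The Wnt and fibroblast growth factor (FGF) signalling genes of Xenopus tropicalis embryos were described from their transcript counts and from the peaks of 4 histone marks and of Smad2/3 around them. Members were taken by name: wnt ligands, fzd, dkk, sfrp, axin, dvl, lrp5, lrp6, tcf7, lef1, fgf, fgfr, spry, spred, dusp, etv and sef genes among the labels of the RNA table that name a single gene and the nearest genes of the peak lists. The search found 75 members among 8626 gene names. Of these, 43 had an RNA label and 74 were named in a peak list. In all, 42 had both, fgfr1op had only an RNA label, and the other 32 had only peaks. No axin, lrp5, lrp6 or sef gene was among the names. The members were 10 Wnt ligands, 7 Frizzled receptors, 6 secreted antagonists of the dkk and sfrp families, 3 Dishevelled genes, 4 Tcf and Lef factors, 14 FGF ligands, 7 genes with an fgfr name, 6 with a spry or spred name, 14 dual-specificity phosphatases and 4 Etv factors. The genes fgfr1op, fgfr1op2 and spryd7 match by the start of their names and are neither FGF receptors nor Sprouty proteins.

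All samples were wild-type whole embryos made by in vitro fertilization. The Nodal-inhibited group was at Nieuwkoop-Faber stage 9 (late blastula) and had been treated since the 4-cell stage with SB431542. This compound inhibits the Alk4, Alk5 and Alk7 receptor kinases, which activate Smad2 and Smad3 and include the receptors of Nodal and Activin. Untreated embryos were at stage 8 (mid-blastula), stage 9 and stage 10.5 (early gastrula). Each group of each assay was 1 library, from a pool of 250 embryos for chromatin or from 400 ng of mRNA for 3′-end RNA sequencing. H3K27ac and H3K4me1 were profiled with and without the inhibitor, while H3K4me3, H3K27me3 and Smad2/3 were profiled in untreated embryos only. With 1 library per group no difference has a replicate check, and every interval below covers counting error only.

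In Wnt signalling a secreted Wnt protein binds a Frizzled receptor. Dishevelled then passes the signal on, so that beta-catenin is stabilised and converts Tcf and Lef factors at target genes to activation, while Dkk and Sfrp proteins block the ligand or receptor outside the cell. In FGF signalling a ligand dimerises a tyrosine kinase receptor and activates the Ras and ERK cascade, whose outputs include Etv factors and its own brakes, the Sprouty and Spred proteins and ERK phosphatases of the Dusp family. In the frog embryo maternal Wnt signalling sets the dorsal side, zygotic Wnt and FGF signals pattern the mesoderm during gastrulation, and Nodal signalling through Smad2/3 induces the mesoderm and endoderm.

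The RNA libraries held 4973283 tags that name a gene at stage 8, 6659554 at stage 9, 8030203 at stage 10.5 and 4656275 in inhibited stage 9 embryos. Levels are in CPM, the tags of a gene scaled to these library totals. A member was called higher or lower at a 2-fold ratio of CPM + 1 where the higher library reached 10 CPM. Germ layer and stage markers had labels for 8 of 14 genes, and of 8 markers of later cell types only alb had a label, at 16.2 to 32.0 CPM. The Nodal target gsc had 11 tags in inhibited and 17 in untreated stage 9 embryos, and the mesodermal gene t had 0 and 1, so the RNA at this stage holds too few tags of these genes to check the treatment. The tag labels ignore strand, and of the 41 labelled members with a single annotated start, 4 had under 50% of their tags on their own strand (dusp19, fgf2, spred2 and wnt5b), so their totals mix transcripts of both strands. Other labels also held opposite-strand tags, among them dusp11, etv6, fgfr2, dvl3 and dusp12, with 54.9%, 56.1%, 64.3%, 66.2% and 74.0% on their own strand. In whole embryos, fewer cells of a type and less RNA per cell cannot be told apart.

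Wnt and FGF transcripts were mostly at their highest in the early gastrula. Of 34 members that reached 10 CPM at stage 9 or 10.5, 24 were called higher at stage 10.5 than at stage 9, beside 29.0% of the 5045 labels tested, and 2 were called lower, beside 17.2%. The median log2 ratio was 1.76 for these members and 0.29 for all labels tested. Of 26 members tested between stages 8 and 9, 12 were called lower at stage 9, beside 28.8% of all 4953 labels, and 1 was called higher, beside 7.29%. A level of 10 CPM in 1 library is enough to enter these counts, and among the 21 members at 10 CPM or more in both stage 9 and stage 10.5 libraries, 11 were higher and 2 lower at stage 10.5, beside 22.5% and 16.5% of all labels at that level. Of the 21 members at that level in both stage 8 and stage 9 libraries, 7 were lower and 1 higher at stage 9, beside 22.8% and 7.38%. Of 36 members at 10 CPM or more at some stage, 9 were highest at stage 8, 3 at stage 9 and 24 at stage 10.5, while among all labels at that level 43.0% were highest at stage 8, 21.8% at stage 9 and 35.2% at stage 10.5. The stage 9 library was the lowest of the 3 for 24 of the 36 members (66.7%) and for 46.9% of all labels. That library is the denominator of the stage 10.5 ratios and the numerator of the stage 9 over stage 8 ratios, so the 2 sets of ratios are not independent. With the stage 8 library in its place, 17 members were called higher at stage 10.5, beside 14.7% of all labels, and 5 lower, beside 24.6%. The calls between stages 8 and 9 moved with the scaling of the libraries. With either the trimmed mean of M values or the median of ratios, 5 members were lower at stage 9 (dvl3, fgfr1, fgfr2, spred2 and spry2) and 3 were higher (fgfr1op2, dusp23 and wnt11r), beside 14.6% and 17.3% of all labels with the trimmed mean. The spred2 label, whose tags were all on the opposite strand, is among the members counted as lower at stage 9 with each scaling.

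**Figure D1:**
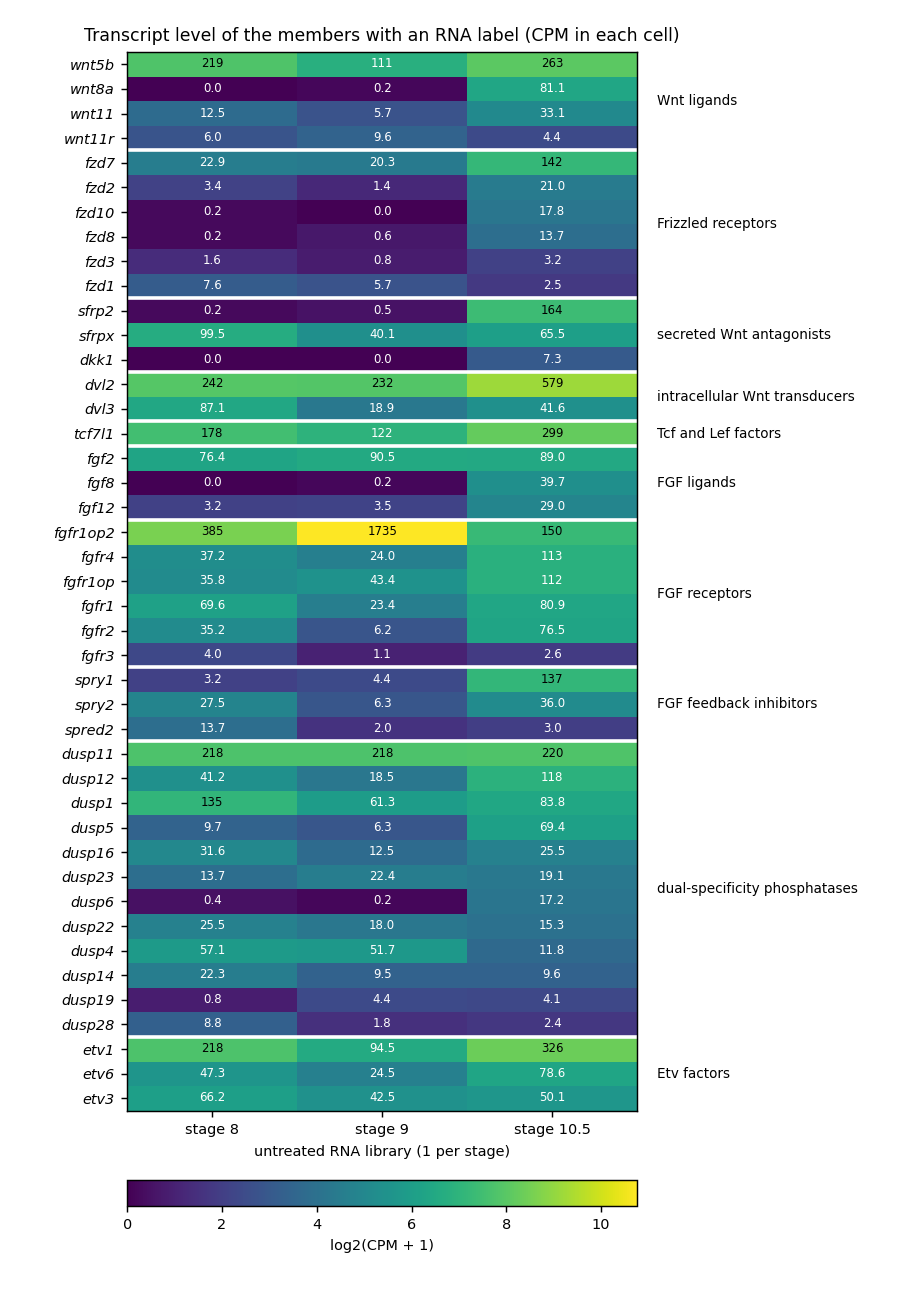
Level of the 43 members with an RNA label in the 3 untreated RNA libraries, in rows grouped by role, with the CPM printed in each cell and the colour giving log2(CPM + 1). Genes such as wnt8a, sfrp2 and fgf8 are at or near 0 at stages 8 and 9 and above 39 CPM at stage 10.5, whereas sfrpx, dvl3 and fgfr1 are lowest at stage 9; fgfr1op and fgfr1op2 stand under the FGF receptors by name only.

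Among the Wnt ligands, wnt8a was the one whose transcripts first appeared in the gastrula. This ligand acts through beta-catenin in the ventral and lateral mesoderm. It had 0 tags at stage 8, 1 at stage 9 and 651 at stage 10.5, the last equal to 81.1 CPM. The stage 10.5 library was thus 540-fold above the stage 9 library, with a counting interval of 96.6 to 21357 that reflects the single tag at stage 9. The transcript of wnt11, a maternally supplied ligand in Xenopus that also directs cell movements in gastrulation, stood at 12.5, 5.71 and 33.1 CPM at stages 8, 9 and 10.5. It was 5.81-fold higher at stage 10.5 than at stage 9 (95% interval 4.12 to 8.39). Its tags came from a pair of regions on opposite strands, of which the larger held 60, 26 and 218 tags at the 3 stages. The label of wnt5b, a ligand of the non-canonical branch, stood at 219, 111 and 263 CPM, but only 16.7% of its tags were on its own strand. Its own-strand tags were 273, 40 and 404 at stages 8, 9 and 10.5, or 54.9, 6.01 and 50.3 CPM. The low point at stage 9 was thus deeper there, and stage 10.5 did not exceed stage 8. The related ligand wnt11r stayed under 10 CPM in every library, at 6.03, 9.61 and 4.36 CPM. The other 6 Wnt ligands (wnt3, wnt4, wnt7b, wnt9b, wnt10b and wnt16) had no RNA label.

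The Frizzled genes, which encode the Wnt receptors, were low or moderate in the blastula, and 4 were called higher in the gastrula. The most abundant was fzd7, a receptor used by maternal and zygotic Wnts in Xenopus, at 22.9, 20.3 and 142 CPM at stages 8, 9 and 10.5. It was 6.99-fold higher at stage 10.5 than at stage 9 (5.84 to 8.42). The receptor gene fzd2 stood at 3.42, 1.35 and 21.0 CPM, a 15.6-fold difference between stages 10.5 and 9 (8.01 to 34.6). Both fzd10 and fzd8 were all but absent from the blastula libraries. For fzd10 the counts were 1, 0 and 143 tags, at least 39.5-fold higher at stage 10.5 than at stage 9 when the 0 is set to 3 tags. For fzd8 they were 1, 4 and 110 tags, a 22.8-fold difference (8.66 to 85.2). The other receptor genes with a label, fzd1 and fzd3, stayed below 10 CPM throughout, and fzd6 had no label.

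Secreted Wnt antagonists included the member with the largest gain in CPM among those near 0 in the blastula. The Frizzled-related protein gene sfrp2 had 1, 3 and 1317 tags at stages 8, 9 and 10.5, and reached 164 CPM. That was 364-fold above stage 9 (124 to 1768). The Lrp-binding antagonist dkk1, a head inducer secreted by the organizer, had 0, 0 and 59 tags and stayed below the 10 CPM needed for a call, at 7.35 CPM. Its level was at least 16.3-fold higher at stage 10.5 than at stage 9. The related sfrpx followed another course, with 99.5, 40.1 and 65.5 CPM. It was called lower at stage 9 than at stage 8, by 2.48-fold (2.13 to 2.89), and fell within 2-fold between stages 10.5 and 9. The call at stage 9 was lost with either the trimmed mean or the median of ratios. The antagonist genes dkk3, sfrp1 and sfrp5 had no RNA label.

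The cytoplasmic transducers and the Tcf factor were already abundant at stage 8. Transcripts of dvl2, a Dishevelled gene, stood at 242, 232 and 579 CPM, the highest level of any Wnt member at stage 10.5, and were 2.49-fold higher there than at stage 9 (2.35 to 2.64). Those of dvl3 stood at 87.1, 18.9 and 41.6 CPM, so that stage 9 was the low point. They were 4.60-fold lower at stage 9 than at stage 8 (3.77 to 5.66) and 2.20-fold higher at stage 10.5 than at stage 9 (1.79 to 2.72), yet below the stage 8 level in the gastrula. The second of these calls was lost with either rescaling. The factor gene tcf7l1, which encodes a Tcf that represses Wnt targets until beta-catenin arrives, stood at 178, 122 and 299 CPM, 2.46-fold higher at stage 10.5 than at stage 9 (2.27 to 2.66). This call was lost with the median of ratios. The genes lef1, tcf7, tcf7l2 and dvl1 had no RNA label of their own, and a label shared by tcf7 and gatad1 was left out.

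Only 3 of the 14 FGF ligands had an RNA label. The mesodermal ligand gene fgf8 had 0, 1 and 319 tags at stages 8, 9 and 10.5, or 39.7 CPM in the gastrula. It was 265-fold above stage 9 (47.1 to 10482). The gene fgf12, whose product is an intracellular FGF homologue that does not signal through FGF receptors, stood at 3.22, 3.45 and 29.0 CPM, an 8.40-fold difference between stages 10.5 and 9 (5.46 to 13.5). The label of fgf2, a ligand long known as a mesoderm inducer in frog explants, was level at 76.4, 90.5 and 89.0 CPM. Only 27.1% of its tags were on its own strand, and those stood at 28.8, 31.7 and 21.7 CPM.

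Of the FGF receptor genes, fgfr1 and fgfr2 were called lower at stage 9 than at stage 8. Transcripts of fgfr1, the receptor used in mesoderm formation, stood at 69.6, 23.4 and 80.9 CPM, and were 2.97-fold lower at stage 9 than at stage 8 (2.45 to 3.61). Those of fgfr2 stood at 35.2, 6.16 and 76.5 CPM. They were 5.72-fold lower at stage 9 than at stage 8 (4.05 to 8.24) and 12.4-fold higher at stage 10.5 than at stage 9 (9.05 to 17.5). Those of fgfr4 stood at 37.2, 24.0 and 113 CPM, 4.70-fold higher at stage 10.5 than at stage 9 (3.97 to 5.60). The receptor gene fgfr3 stayed at or below 4.02 CPM, and fgfrl1, a receptor-like gene without a kinase domain, had no label. The centrosomal gene fgfr1op was 2.59-fold higher at stage 10.5 than at stage 9 (2.26 to 2.97). The course of fgfr1op2, known as a fusion partner of FGFR1 in human leukaemia, was unlike that of any other member, with 385, 1735 and 150 CPM, and 98.8% of its tags came from 1 region.

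Genes of the FGF brakes and ERK phosphatases took different courses. The Sprouty gene spry1 had 16, 29 and 1097 tags at stages 8, 9 and 10.5, and its 137 CPM in the gastrula was 31.4-fold above stage 9 (21.7 to 47.1). Its paralogue spry2 was present earlier and dipped, at 27.5, 6.31 and 36.0 CPM. It was 4.37-fold lower at stage 9 than at stage 8 (3.07 to 6.33). All 109 tags of the spred2 label, from a gene for another Ras pathway inhibitor, were on the strand opposite to the gene, so its call as lower at stage 9 cannot be assigned to spred2. Among the phosphatases, dusp6, whose product is an ERK-specific phosphatase and a common readout of FGF signalling, had 2, 1 and 138 tags. The nuclear ERK phosphatase gene dusp5 stood at 9.65, 6.31 and 69.4 CPM, 11.0-fold higher at stage 10.5 than at stage 9 (8.03 to 15.4). The phosphatase gene dusp4 ran the other way, at 57.1, 51.7 and 11.8 CPM, and was 4.37-fold lower at stage 10.5 than at stage 9 (3.47 to 5.54).

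The remaining phosphatases are less closely tied to FGF. The gene dusp12 stood at 41.2, 18.5 and 118 CPM, 6.41-fold higher at stage 10.5 than at stage 9 (5.30 to 7.79). The gene dusp1, which encodes a phosphatase of several MAP kinases, stood at 135, 61.3 and 83.8 CPM, and was 2.20-fold lower at stage 9 than at stage 8 (1.94 to 2.49). The genes dusp14 and dusp16 were also called lower at stage 9 than at stage 8, by 2.36-fold and 2.53-fold. None of these calls of dusp1, dusp14 and dusp16 between stages 8 and 9 held with the trimmed mean or the median of ratios. The label dusp11, of a phosphatase that acts on RNA, was level at 218, 218 and 220 CPM, and it covers a pair of genes on different scaffolds (dusp11 and dusp11.2). The dusp16 label likewise joins regions on 2 scaffolds. The genes dusp22 and dusp23 stayed between 13.7 and 25.5 CPM, dusp19 and dusp28 stayed under 10 CPM, and dusp7 had no label.

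Of the Etv factors, which are ETS-domain transcription factors, the 3 with a label were present from stage 8. The gene etv1, which belongs to the Etv subfamily that responds to FGF, stood at 218, 94.5 and 326 CPM. It was 2.30-fold lower at stage 9 than at stage 8 (2.09 to 2.55) and 3.45-fold higher at stage 10.5 than at stage 9 (3.16 to 3.77). The call between stages 8 and 9 was lost with either rescaling. The repressor gene etv6 stood at 47.3, 24.5 and 78.6 CPM, 3.21-fold higher at stage 10.5 than at stage 9 (2.70 to 3.84). Transcripts of etv3 stayed within 2-fold at 66.2, 42.5 and 50.1 CPM, and etv2, a factor of blood and vessel formation, had no label.

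A group of 6 members had at most 5 tags at each of stages 8 and 9 and at least 10 CPM at stage 10.5: wnt8a, fzd8, fzd10, sfrp2, fgf8 and dusp6. This group was drawn up after the values were seen, and among all 5944 labels 118 (1.99%) met the same limits. Every one of the 6 had an H3K27ac peak within 50 kb at stage 8, stage 9 and stage 10.5, while its transcript stood at 0 to 4 tags at the first 2 of these stages. Of the 118 labels, 100 are also named in a peak list, and H3K27ac lay near 64%, 72% and 91% of those at the 3 stages. H3K4me1 lay near 5 of the 6 at stage 8, with wnt8a the exception, and near all 6 at stages 9 and 10.5, beside 31%, 89% and 96% of the 100. H3K4me3, a mark of active promoters, lay near 2 of them (fgf8 and dusp6) at stage 8, near 5 at stage 9 and near all 6 at stage 10.5, beside 9%, 44% and 90%. All 6 had a Smad2/3 site at stage 10.5, beside 45% of the 100. None had one at stage 8 or 9, beside 2% and 3% of the 100.

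Under Nodal inhibition more members were higher than lower, and the largest difference was in fgfr1op2. Of 26 members tested, 9 were called higher in inhibited than in untreated stage 9 embryos, beside 20.5% of the 4819 labels tested, and 2 were called lower, beside 16.7%. The median log2 ratio was 0.69 for the members tested and 0.21 for all labels. Some of the 9, such as wnt11, fgf12, dusp5 and dusp14, reached 10 CPM only in the inhibited library. Of the 20 members at 10 CPM or more in both libraries, 5 were higher and 2 lower, beside 16.6% and 14.9% of all labels at that level. Since stage 9 is the low point of many members, the untreated library enters this comparison with its low values. With the stage 8 library in its place, 6 members were higher in inhibited embryos, beside 11.6% of all labels, and 8 were lower, beside 28.9%. The log2 ratios of fgfr1 and etv1 were then -0.076 and -0.089, against positive values with untreated stage 9. This comparison shares the untreated stage 9 library with both stage comparisons, so the same library stands behind the low values in all 3.

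**Figure D2:**
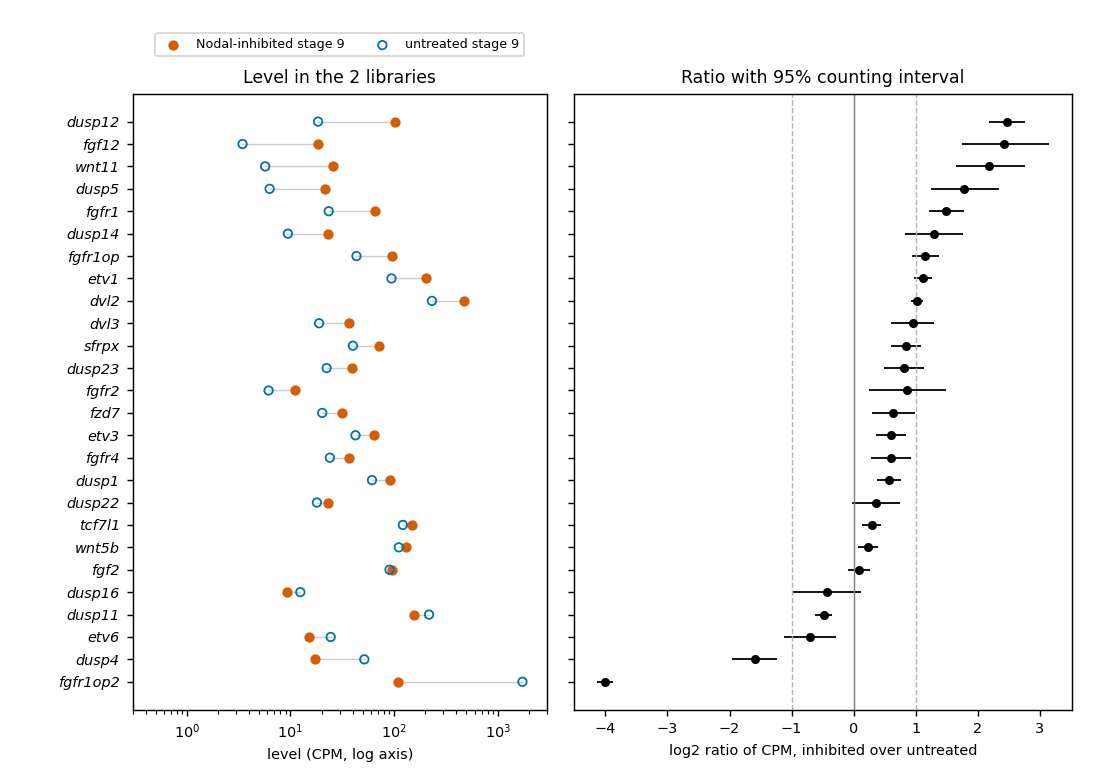
Left, CPM on a log axis of the 26 members tested in the Nodal-inhibited (filled) and untreated (open) stage 9 libraries; right, the log2 ratio of CPM of inhibited over untreated with its 95% counting interval, dashed lines marking 2-fold. The points of dusp12, fgf12 and wnt11 lie furthest to the right and those of dusp4 and fgfr1op2 furthest to the left.

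Of the Wnt genes, wnt11 and dvl2 were called higher under inhibition. The ligand gene wnt11 stood at 26.0 CPM in inhibited embryos and 5.71 CPM in untreated embryos, 4.55-fold higher (3.14 to 6.74). Its larger region held 112 tags in inhibited embryos and 26 in untreated ones. The transducer gene dvl2 stood at 470 and 232 CPM, 2.02-fold higher (1.90 to 2.16), a call that was lost with either rescaling. The receptor gene fzd7 was within 2-fold at 31.6 CPM in inhibited and 20.3 CPM in untreated embryos. The factor gene tcf7l1, at 149 and 122 CPM, and the wnt5b label, at 130 and 111 CPM, were also within 2-fold. On its own strand wnt5b had 44 tags in inhibited and 40 in untreated embryos, or 9.45 and 6.01 CPM.

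Of the members taken by FGF-related names, a ligand homologue, a receptor, several phosphatases, etv1 and fgfr1op were called higher under inhibition. As given above, fgf12 does not signal through FGF receptors, fgfr1op is not one, and dusp12 and dusp14 are less closely tied to FGF. The gene dusp12 stood at 102 CPM in inhibited and 18.5 CPM in untreated embryos, 5.53-fold higher (4.53 to 6.80). Its own-strand tags stood at 58.2 and 15.6 CPM. An opposite-strand region at its start held 155 tags in inhibited and 15 in untreated embryos. The intracellular fgf12 stood at 18.5 and 3.45 CPM, 5.35-fold higher (3.34 to 8.88). The ERK phosphatase gene dusp5 stood at 21.7 and 6.31 CPM, 3.44-fold higher (2.38 to 5.05). The receptor gene fgfr1 was 2.81-fold higher (2.31 to 3.44), at 65.9 CPM in inhibited and 23.4 CPM in untreated embryos. The genes dusp14, fgfr1op and etv1 were higher by 2.45-fold, 2.22-fold and 2.16-fold, of which the etv1 call was lost with either rescaling and the fgfr1op call with the median of ratios. In the other direction, dusp4 stood at 17.2 CPM in inhibited and 51.7 CPM in untreated embryos, 3.01-fold lower (2.35 to 3.88). The level of fgfr1op2 was 108 CPM in inhibited embryos and 1735 CPM in untreated embryos, 16.0-fold lower (14.7 to 17.6). Both libraries at the neighbouring untreated stages were also far below the untreated stage 9 value for this gene, at 385 and 150 CPM. The fgf2 label was level at 95.8 and 90.5 CPM, whereas its own-strand tags stood at 11.6 CPM in inhibited and 31.7 CPM in untreated embryos.

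The 6 members grouped above by tag counts (wnt8a, fzd8, fzd10, sfrp2, fgf8 and dusp6) were under 5 CPM in both stage 9 libraries. The inhibited library held more tags for 5 of them, and so it did for 65 of the 118 labels of the same course, while fzd8 ran the other way. For wnt8a there were 7 tags in inhibited and 1 in untreated embryos, a 10.01-fold ratio with an interval of 1.29 to 451. For fgf8 there were 11 and 1 tags, a 15.7-fold ratio (2.29 to 677). For sfrp2 there were 20 and 3 tags, a 9.53-fold ratio (2.83 to 50.1). For dusp6 there were 21 and 1 tags, a 30.03-fold ratio (4.83 to 1242). None of these entered the calls. The group was limited to at most 5 tags in untreated stage 9 embryos, the denominator of these ratios, which favours high ratios in advance. The receptor gene fzd8 had 0 and 4 tags, and fzd10 had 2 and 0 tags. The feedback genes spry1, with 45 and 29 tags, and spry2, with 23 and 42 tags, were also below 10 CPM in both libraries.

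Other genes of the same pathways, which do not match the search names, gave a mixed picture. Of 45 further Wnt pathway genes listed, 21 had a label and 17 were tested under inhibition, with 5 called higher (rhoa, ctnnb1, lgr4, nkd1 and csnk1a1) and 3 lower (btrc, csnk1e and csnk1d), beside 20.5% and 16.7% of all labels. The gene ctnnb1, which encodes beta-catenin, stood at 700 CPM in inhibited and 225 CPM in untreated stage 9 embryos. It too was lowest at stage 9, with 837, 225 and 1516 CPM at stages 8, 9 and 10.5. Of 18 tested between stages 10.5 and 9, 6 were higher, including the secreted antagonist frzb, which had 0, 0 and 703 tags, and 3 were lower, beside 29.0% and 17.2% of all labels. Of 19 tested between stages 9 and 8, 8 were lower at stage 9 and none was higher, beside 28.8% and 7.29%. Of 25 further FGF pathway genes, 10 had a label. Of 8 tested between stages 10.5 and 9, the genes flrt3, grb2 and kras were higher and none was lower. Known targets took different courses. Of the Wnt targets, cdx2, cdx4 and msgn1 had at most 2 tags each at stages 8 and 9 and 1446, 260 and 216 tags at stage 10.5, and of the FGF targets t had 0, 1 and 1869 tags. The FGF target myf5 stood at 14.5, 4.65 and 37.1 CPM at stages 8, 9 and 10.5, and fos at 123, 37.8 and 7.22 CPM, 5.24-fold lower at stage 10.5 than at stage 9 (3.92 to 7.10).

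More members carried the active histone marks at stage 10.5 than at stage 8, as did more of all genes. A peak was credited to the gene that the deposited annotation names as nearest, within 50 kb of its transcription start site (TSS), and shares are given for the 74 members and for all 8164 genes that a peak list names. H3K27ac, a mark of active enhancers and promoters, lay near 40, 44 and 57 members at stages 8, 9 and 10.5, beside 42.1%, 53.9% and 78.4% of all genes. H3K4me1, a mark of enhancers, lay near 36, 62 and 67 members, beside 44.3%, 86.9% and 91.8%. Its lists held 5874, 25975 and 35700 peaks at these stages. H3K4me3 lay near 14, 39 and 58 members, beside 13.8%, 52.2% and 81.4%. A peak of this mark with its midpoint within 1 kb of the start was found at 13.5%, 37.8% and 32.4% of members. The shares of all genes were 8.37%, 40.0% and 58.0%. Wide peaks that cover the start from a midpoint further away are missed by this count. At stage 10.5 the median width of H3K4me3 was 2287.5 bp for member peaks and 1543 bp for the list. H3K27me3, the mark of Polycomb repression, lay near none of the 74 at any stage, beside 0.159%, 0.147% and 0.563%, in lists of 75, 81 and 179 peaks. In share of genes with a histone peak the members stood above the background by over 10 percentage points only for H3K27ac at stage 8, at 54.1% of members. For H3K27ac the member peaks had median widths of 3040, 3377 and 3505 bp, against 1876, 2071 and 2375 bp for all list peaks. These list medians, and that of H3K4me3, include peaks over 50 kb from a gene, which the member peaks leave out.

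**Figure D3:**
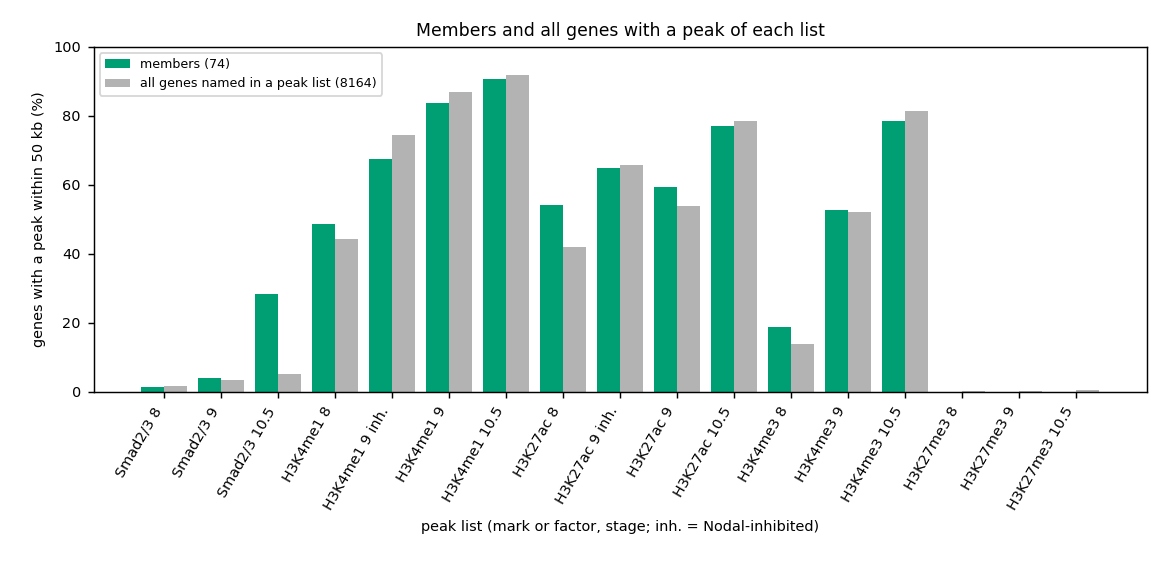
Percent of the 74 members (green) and of all 8164 peak-list genes (grey) with a peak within 50 kb, for each of the 17 peak lists; inh. marks the Nodal-inhibited lists. The Smad2/3 list of stage 10.5 is the one where the member bar stands far above the bar of all genes, at 28.4% against 5.32%.

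The marks are given by role as counts, with no test between roles. Among the 7 Frizzled genes, 5 had both H3K27ac and H3K4me1 at stage 8 (fzd1, fzd2, fzd7, fzd8 and fzd10), where 42.1% and 44.3% of all genes had each, and all 7 had both marks at stages 9 and 10.5. Of the 10 Wnt ligands, H3K27ac lay near 3, 2 and 4 at stages 8, 9 and 10.5, beside 42.1%, 53.9% and 78.4% of all genes, while H3K4me1 lay near 3, 8 and 7. Of these, wnt11 and wnt8a carried H3K27ac at every stage. The length of H3K27ac around wnt11 was 17.3, 22.6 and 48.0 kb at the 3 stages, and around wnt8a it was 10.3, 13.7 and 29.3 kb. Of the 14 FGF ligands, H3K27ac lay near 7, 6 and 11. It lay near 5 of the 6 spry and spred members at each stage, and spry1 and spry2 had the greatest length of all members at stage 10.5, at 108 and 94.6 kb. The factor genes etv1, tcf7l1 and lef1 carried 67.9, 61.7 and 43.9 kb at stage 10.5, and lef1, which has no RNA label, already had 8.43 kb at stage 8. Of 60 members with H3K27ac at stage 9 or 10.5, 56 had a greater length at stage 10.5, and the whole list grew likewise, covering 97.1 Mb at stage 10.5 and 34.6 Mb at stage 9. The members held 1.53% and 1.47% of those lengths, in peaks of 7.96 and 4.98 kb on average. The gene dusp12, called higher both in the gastrula and under inhibition, had an H3K27ac peak at stage 8 only. The genes wnt16 and sfrp5 were named in the peak lists but had no peak of any kind within 50 kb.

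**Figure D4:**
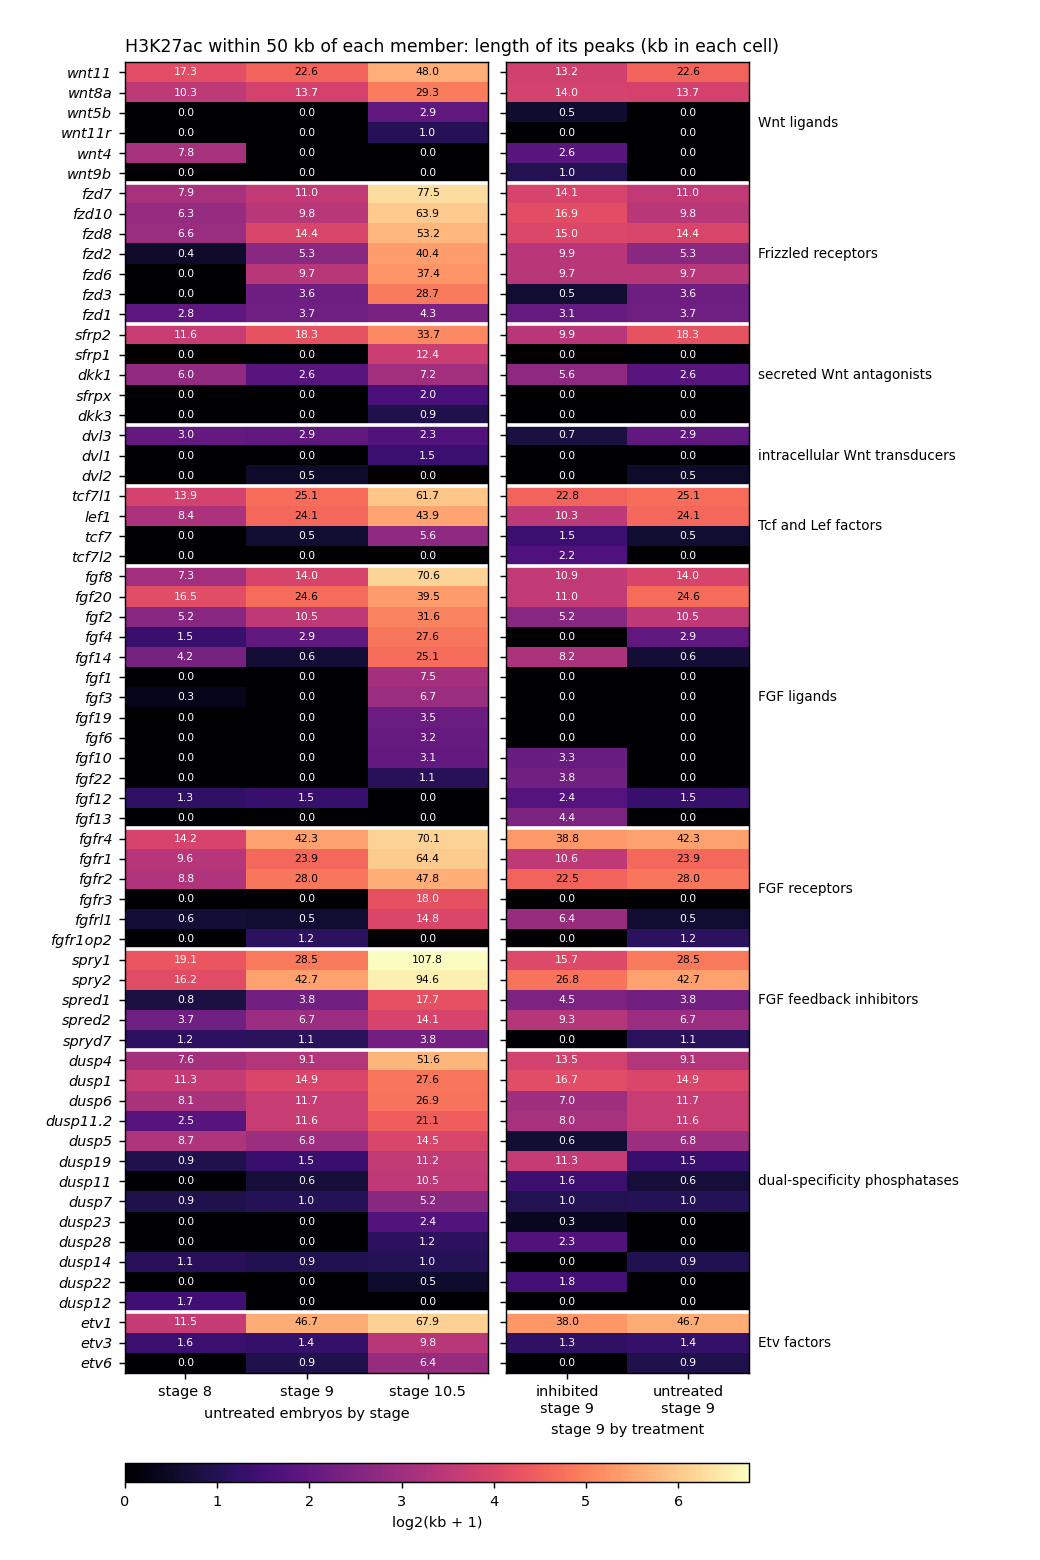
Length in kb of all H3K27ac peaks within 50 kb of each member that has any, printed in each cell and coloured as log2(kb + 1); left, untreated embryos at stages 8, 9 and 10.5; right, inhibited and untreated stage 9 embryos, with members grouped by role (fgfr1op2 and spryd7 by name only). Long domains at stage 10.5 lie around spry1, spry2, fzd7, fgf8, fgfr4 and etv1, while most Wnt ligands have few or none.

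Smad2/3 sites appeared near the members almost only at stage 10.5. At stage 8 the list of 207 sites held 1 near a member, fgf22, beside 1.62% of all genes with a site. At stage 9 the list of 865 sites held 5 near 3 members (wnt7b, wnt11r and dusp23), beside 3.52% of all genes. None of these 6 earlier sites overlapped a histone peak of any list at any stage. Few sites of the whole lists within 50 kb of a gene did so either. H3K4me1 of the same stage overlapped 5.97% of them at stage 8 and 8.87% at stage 9, and H3K27ac overlapped 6.72% and 6.42%. The 5 member sites of stage 9 had a GC content of 52.3 to 58.7%. At stage 10.5 the list of 1024 sites held 42 near 21 members, or 28.4% of the 74, beside 5.32% of all genes. The 21 were wnt8a and wnt11, fzd7, fzd8 and fzd10, sfrp2, tcf7l1 and lef1, fgf4, fgf8 and fgf20, fgfr1, fgfr2 and fgfr4, spry1 and spry2, dusp4, dusp5, dusp6 and dusp11.2, and etv1. Each role except Dishevelled was represented, and no Smad2/3 site at stage 10.5 lay near any of the 3 dvl genes. Of the 21, 12 had at least 2 sites, against 114 of the 434 genes with a site in the whole list, and wnt11, fgfr4 and spry2 had 4 each, against 20 genes in the whole list with that many. The header of the stage 9 list names pooled reads and those of the other Smad2/3 lists do not, and the part of this in the counts per stage was not tested.

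The 42 sites were mostly distal. Their median distance from the TSS was 9.24 kb, against 9.12 kb over all sites of the list within 50 kb. Of the 42, 29 were upstream and 13 downstream of the start, and 4 lay within 1 kb of it, at fzd8, sfrp2, wnt8a and fgfr4. The highest-ranked site was 10.1 kb upstream of fzd7, in an intergenic stretch on scaffold 208 of the xenTro2 assembly from 1721887 to 1722798, and ranked 22 of the 1024 by the authors' score. The pair of sites upstream of fgf20, at 20.1 and 22.3 kb (scaffold 968, 166537 to 167008 and 168690 to 169350), ranked 84 and 89. The site 2.66 kb upstream of fgf8 (scaffold 238, 632401 to 632800) ranked 96. At fgfr2 the sites flanked the start, with 1 in an intron 8.09 kb downstream and 1 4.60 kb upstream. The gene fgf4 had sites in introns, 20.9 kb downstream and 5.10 kb upstream of its start, by the deposited annotation. For wnt11, which has a pair of annotated starts, the 4 sites were not all measured from the same start. A pair lay 1.01 and 2.07 kb upstream of the start nearer to it. The other pair lay 9.66 and 12.9 kb downstream of the other start.

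Most of these sites overlapped an H3K27ac peak at stages 8 and 9, and most overlapped an H3K4me1 peak at stage 9 but not at stage 8. H3K27ac overlapped 29 of the 42 at stage 8, 36 at stage 9 and all 42 at stage 10.5, against 55.1%, 73.6% and 95.5% of all stage 10.5 sites of the list within 50 kb of a gene. H3K4me1 overlapped 3, 39 and 42, against 6.89%, 81.1% and 99.4%. The H3K4me1 list held 5874 peaks at stage 8 and 25975 at stage 9, and the part of list size in these counts was not tested. The 3 sites with H3K4me1 at stage 8 were a pair near the start of fgfr4 and 1 near the start of spry1. H3K4me3 overlapped none at stages 8 and 9 and 18 at stage 10.5, against 1.12%, 3.69% and 35.3% of the list. The sites without H3K27ac at stage 9 were the more distal site of wnt8a, 1 of fgf8, both of fgf4, the site of dusp6 and the most distal site of spry2. Of these 6, those of dusp6 and spry2 and the downstream one of fgf4 also lacked H3K4me1 at stage 9.

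**Figure D5:**
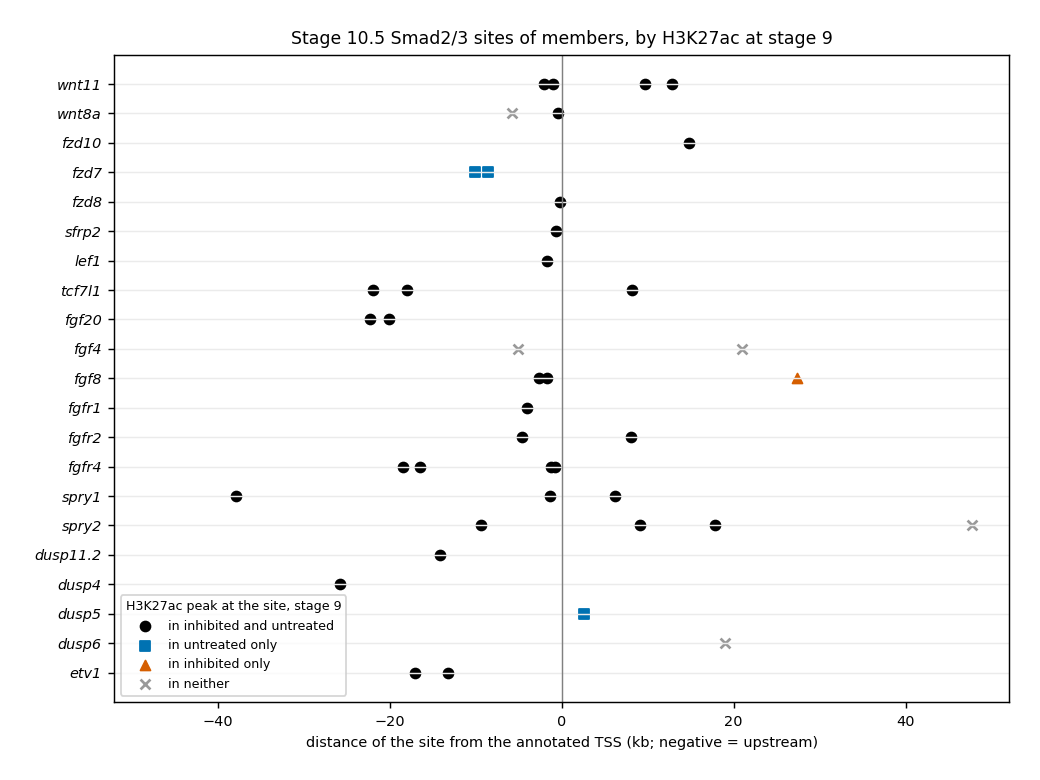
Distance in kb from the annotated TSS of each of the 42 stage 10.5 Smad2/3 sites near 21 members, negative upstream, with symbols for H3K27ac at the site in the inhibited and untreated stage 9 lists. The sites marked in untreated embryos only belong to fzd7 and dusp5, and the one marked in inhibited embryos only to fgf8.

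Of the 17 members with both a stage 10.5 Smad2/3 site and an RNA label, 16 were called higher at stage 10.5 than at stage 9 and 1, dusp4, was lower, beside 29.0% and 17.2% of all labels tested. Of the 26 labelled members without a site, 8 were higher, 8 were within 2-fold, 1 (fgfr1op2) was lower and 9 did not reach 10 CPM. Over all genes with a label and a peak-list name, 46.9% of the 309 with a stage 10.5 site were higher and 7.77% lower, and 23.4% of the 4691 without one were higher and 14.8% lower. This sets a pair of readouts side by side over genes of 1 library each, with no test.

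Under Nodal inhibition most enhancer marks near the members were still called. H3K27ac lay near 48 members in inhibited and 44 in untreated stage 9 embryos, beside 65.8% and 53.9% of all genes. Of the 137 H3K27ac peaks near members in inhibited embryos, 91 overlapped a peak of the untreated list (66.4%, Clopper-Pearson 95% interval 57.9 to 74.3), against 42.7% of the 9810 peaks of all genes. In the other direction 76 of 102 untreated peaks overlapped an inhibited one (74.5%, 64.9 to 82.6), against 58.8% of 6598. Median widths were 2414 bp for member peaks and 1788 bp for all peaks of the list in inhibited embryos. In untreated embryos they were 3377 and 2071 bp. The list medians include peaks over 50 kb from a gene, which the overlap shares leave out. The part of width in the overlap was not tested. With at least 50% of a peak covered, the shares were 56.9% for inhibited peaks, against 31.9% over all genes, and 55.9% for untreated peaks, against 46.5%. H3K4me1 lay near 50 members in inhibited and 62 in untreated embryos, beside 74.6% and 86.9%. Of 132 inhibited H3K4me1 peaks 109 overlapped an untreated one (82.6%, 75.0 to 88.6), against 86.1% over all genes. Of 161 untreated H3K4me1 peaks 111 overlapped an inhibited one (68.9%, 61.2 to 76.0), against 62.7% over all genes. Aligner and sequencing adapters differed between inhibited and untreated histone libraries, so they cannot be told apart from the treatment in these values.

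The total length of H3K27ac near members was 441 kb in 137 peaks of inhibited embryos and 508 kb in 102 peaks of untreated embryos, with 3.22 and 4.98 kb per peak. The whole list covered 39.9 Mb in inhibited and 34.6 Mb in untreated embryos, of which the members held 1.11% and 1.47%. Of the 38 members with a peak in both, 17 had the greater length in inhibited and 21 in untreated embryos. This split was not computed over all genes. Lengths around fgfr1 were 10.6 kb in inhibited and 23.9 kb in untreated embryos, and around lef1 they were 10.3 and 24.1 kb. Around spry2 they were 26.8 and 42.7 kb, and around dusp5 they were 0.562 and 6.84 kb. Longer stretches in inhibited embryos lay around fgf14, at 8.23 kb in inhibited and 0.604 kb in untreated embryos, and fzd10, at 16.9 and 9.81 kb. For H3K4me1 the members held 605 kb in 132 peaks of inhibited embryos and 527 kb in 161 peaks of untreated embryos, or 4.58 and 3.27 kb per peak. The whole list also held fewer and wider peaks under inhibition. It had 17162 peaks in inhibited and 25975 in untreated embryos, with median widths of 2003.5 and 1626 bp. These lists covered 49.5 and 59.0 Mb, of which the members held 1.22% and 0.892%. Of the 9 members with transcripts called higher in inhibited embryos, fgfr1, dusp5, wnt11, etv1, dvl2 and dusp14 had shorter or no H3K27ac there. That of fgf12 was longer, and dusp12 and fgfr1op had none in either treatment. For dvl2 and dusp14 the untreated H3K27ac was 1 peak each, of 0.459 and 0.940 kb. The share of all genes with such a course was not computed, so these counts have no background.

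At the level of genes, 10 members had H3K27ac in inhibited embryos only, beside 23.4% of all genes: wnt4, wnt5b, wnt9b, tcf7l2, fgf10, fgf13, fgf22, dusp22, dusp23 and dusp28. A further 6 had it in untreated embryos only, beside 11.4%: dvl2, fgf4, fgfr1op2, dusp14, etv6 and spryd7. Each of these 6 had 1 untreated peak. The other 38 had it in both, beside 42.4%. H3K4me1 was found in inhibited embryos only near fgfr1op2, beside 2.39%, in untreated embryos only near 13 members, beside 14.7%, and in both near 49, beside 72.2%. The 13 included the antagonists dkk1, dkk3 and sfrp1. Among the 6 antagonists only sfrp2 had H3K4me1 under inhibition, against 4 in untreated embryos, a count by role without a background. For sfrp1 the untreated H3K4me1 was 1 peak of 0.767 kb. H3K27ac around dkk1 was longer in inhibited embryos, at 5.64 kb against 2.56 kb in untreated ones. The genes fgf4, dvl2 and etv6 had neither mark within 50 kb in inhibited embryos and both in untreated embryos. Each had 1 untreated peak of each mark, and the share of all genes with this course was not computed.

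At the 42 Smad2/3 sites of stage 10.5, H3K27ac was called in inhibited stage 9 embryos at 34 and in untreated ones at 36, against 67.0% and 73.6% of all sites of the list within 50 kb. It was in both at 33, in inhibited only at 1 site of fgf8 (27.4 kb downstream), and in untreated only at 3, both sites of fzd7 and that of dusp5. H3K4me1 was called at 32 in inhibited and 39 in untreated embryos, against 64.3% and 81.1%. The 7 sites with H3K4me1 in untreated embryos only belonged to fzd7 and fgf20 (2 each), fgf8, fgfr1 and fgf4 (1 each). For neither mark was the share of all list sites called in 1 treatment only computed, so these splits have no background. Among the 42, the pair of fzd7 sites, 8.51 and 10.1 kb upstream, were the only ones to carry H3K27ac and H3K4me1 in untreated embryos and neither under inhibition. The transcript of fzd7 was within 2-fold at that stage, as given above.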

How the data were processed

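The members and gene lists were chosen with earlier results of these data known. The authors' deposited raw tag counts per called region, 46039 regions of which 20406 name no gene, were summed per gene label to 5944 labels. Region calling used a bandwidth of 50 and ignored strand, per the file headers. A further 4 per-sample columns match none of the samples and stay unused. CPM are per tags that name a gene (regions without a gene held 29.1 to 32.6% of tags). Ratios carry a conditional binomial 95% interval, and a count of 0 was set to 3 tags. Genes named are those past 2-fold, the most abundant of each role, and those with a Smad2/3 site or with H3K27ac in 1 treatment only.

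The 17 deposited peak lists come from MACS2, with HOMER annotation, per the submitters' processing notes, on xenTro2, per the file headers. Per the same notes BWA was the aligner of the untreated histone libraries, and Bowtie that of the Smad2/3 and inhibited ones. Per the labels only the untreated histone libraries carried multiplexing adapters. The label of the untreated stage 9 H3K4me1 library notes that it was repeated. The deposited score of a peak has no stated scale and was used to rank peaks within a list. GC content is deposited as a fraction and is given in percent. Per the file headers the nearest gene and distance to its TSS come with the deposited lists. Every peak of the stage 9 H3K27ac list carries a name that begins with d8, although its header names stage 9. No list of the 3 input libraries was used here. Overlap means at least 1 shared bp.

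The steps were run in Python 3.11.15 with pandas 2.3.3 and scipy 1.17.1, and tested on simulated counts. Library scalings came from edgeR 4.0.16 and DESeq2 1.42.0. Promoter and protein sequences were not used here. A result of a listed gene is not reported here.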

Additional observations from a re-analysis of the deposited data

How the results depend on the processing

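No paired analysis was possible because each group holds 1 library. Of 127 recomputed counts and shares, 107 stayed within 1.5 times of the reported count or within its interval. The others were these. With the trimmed mean of M values, and likewise with the median of ratios, 5 members were lower and 3 higher at stage 9 than at stage 8, since either scaling moved the median log2 ratio of all labels from -0.45 to 0.08 or 0.10; without a minimum level 2 were higher. With stage 8 in place of untreated stage 9, an alternative chosen after seeing the data, 8 members were lower under inhibition and 5 lower at stage 10.5. Within 10 kb, or with peaks at or above the median score, 0 members had a Smad2/3 site at stage 8 and 1 at stage 9. H3K4me1 at stage 8 lay near 21 members at that score. Within 100 kb, H3K27me3 lay near 1 member at stage 9 and 2 at stage 10.5. With 50% of a peak covered, the shares called in the other list were 56.9% for inhibited and 55.9% for untreated H3K27ac peaks and 62.1% for inhibited H3K4me1 peaks. With the stricter score 62.9% of untreated H3K27ac peaks were called under inhibition. Within 10 kb the H3K4me1 shares were 91.4% for inhibited and 82.3% for untreated peaks. Of single genes, 3 turned in direction, all with stage 8 in place of untreated stage 9: etv1 at -0.089 and fgfr1 at -0.076 under inhibition and dvl3 at -1.05 at stage 10.5 (log2). Apart from the scaling and the stricter or wider limits themselves, the cause was not tested. Depth limits members under 10 CPM: 3 tags are 0.374 to 0.644 CPM in these libraries.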
